A study of Mus musculus with 4 samples.

Results

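Gluconeogenesis and its regulators are described here by 10 genes, chosen by symbol and matched to the Entrez identifiers of 27179 genes in the deposited tables. They are the enzymes Pcx, Pck1, Pck2, Fbp1 and G6pc1 (named G6pc in the annotation used here), the transporter Slc37a4, and the regulators Gcgr, Creb3l3, Foxo1 and Ppargc1a. All 10 passed the filter on low counts and were among the 15470 genes tested. RNA sequencing was done on liver RNA of wild-type C57BL/6J mice labelled male, with 2 libraries of mice fasted overnight with free access to water and 2 libraries of non-fasted mice with permanent access to food. The mice were matched for age, which is not given in the sources used here. The study used this comparison to ask what fasting does to the liver before a paracetamol overdose. Groups follow the sample titles, because the treatment field of the labels reads fasted in all 4.

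Gluconeogenesis makes glucose from lactate, alanine, other amino acids and glycerol, and in mammals the liver is its main site between meals. Pyruvate carboxylase and phosphoenolpyruvate carboxykinase carry pyruvate around the irreversible last step of glycolysis, fructose-1,6-bisphosphatase reverses the phosphofructokinase step, and glucose-6-phosphatase in the endoplasmic reticulum releases free glucose. Glucagon, acting through its receptor and cyclic AMP, raises transcription of these genes during fasting, whereas insulin lowers it by driving FOXO1 out of the nucleus.

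The libraries labelled non-fasted stood apart in their content, and every comparison below rests on them. Over 14 trophoblast markers the fasted libraries held 4 and 6 counts, against 1958310 and 1971729 counts in those labelled non-fasted. Of 9 markers of the decidual stroma, 4 were at 0 in both fasted libraries, among them Prl8a2, with non-fasted counts of 76510 and 78124. Bmp2 and Igfbp4 went the other way. Bmp2 had 233 and 227 counts in fasted libraries, against 179 in each non-fasted library. Igfbp4 had 13873 and 13499 in fasted and 11856 and 11790 in non-fasted libraries. Xist, which coats the silenced X chromosome in female cells, had 2 and 1 counts in fasted and 25772 and 26316 in non-fasted libraries, while the Y-linked Ddx3y was present in all 4 libraries with 1265 and 1234 counts in fasted and 1016 and 1074 in non-fasted. The 14 hepatocyte markers, such as albumin, summed to 1710901 and 1713093 counts in the fasted libraries, of totals of 13541405 and 13528015, and to 1882193 and 1870477 counts in non-fasted libraries, of totals of 36975921 and 36943535. Kidney tubule and gut also use gluconeogenic genes. The 6 kidney tubule markers summed to 1 and 2 counts in fasted and to 99 and 118 in non-fasted libraries. The 5 enterocyte markers summed to 1184 and 1214 counts in fasted libraries and to 2174 and 2211 counts in non-fasted libraries. Of these Fabp2, which liver also makes, took 1182 and 1210 counts in fasted and 622 and 636 in non-fasted libraries (log2 fold change 2.88), Cdx2, also a factor of trophoblast, had no count in fasted libraries and 1498 and 1517 in non-fasted libraries, and Sis was at 0 in all 4.

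Each gene is therefore given on 2 scales. Normalized counts are raw counts divided by a median-of-ratios size factor, which sets the typical gene equal between libraries. Counts per 10000 hepatocyte-marker counts set the hepatocyte markers equal instead, and in bulk RNA fewer hepatocytes and less RNA per hepatocyte cannot be told apart. By median of ratios the hepatocyte markers themselves were higher in fasted libraries, with log2 fold changes of 1.61 to 2.27 and a median of 1.77. Under hepatocyte-marker scaling the markers still ranged from -0.16 to 0.50. On the hepatocyte-marker scale the bounds of the 95% counting intervals, which cover counting error only, lay at most 9.87% of a value away from it, apart from Pck2 (67.8%) and Ppargc1a (26.8%). The part of the trophoblast and decidual RNA in the differences was not tested.

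Genes for the irreversible steps of gluconeogenesis and for their hormonal control were mostly higher in fasted libraries. Of the 10 genes, 4 rose by more than all 14 hepatocyte markers. The marker with the largest rise, Apoa2, stood above 97.5% of all genes tested. Among the 10 genes Pck1 rose most, by a fitted 20.5-fold after median-of-ratios scaling and 6.00-fold against the hepatocyte markers. G6pc1, Gcgr and Creb3l3 also rose on both scales, by 7.94-fold, 6.26-fold and 6.06-fold after median of ratios. Fbp1 and Ppargc1a lay within the range of the hepatocyte markers, as did Pcx, while Slc37a4 and Foxo1 rose by less than every one of these markers, and Pck2 fell. In edgeR's quasi-likelihood test at an adjusted p of 0.05, 9 of the 10 genes were higher and 1 was lower in fasted libraries by median of ratios, where 37.2% of all genes tested were higher and 45.0% lower. Their median log2 fold change was 2.14, against -0.13 over all genes tested. With total counts alone, 9 were again higher and 1 lower, against 22.9% and 62.7% of all genes. Under hepatocyte-marker scaling 6 were higher, 3 were lower and Pcx did not pass the test, against 4.62% of all genes higher and 90.2% lower. Within a group the libraries were close to counting error of each other. No source names the mouse behind a library, and the p-values reflect only the spread among these libraries, which may be technical.

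**Figure D1:**
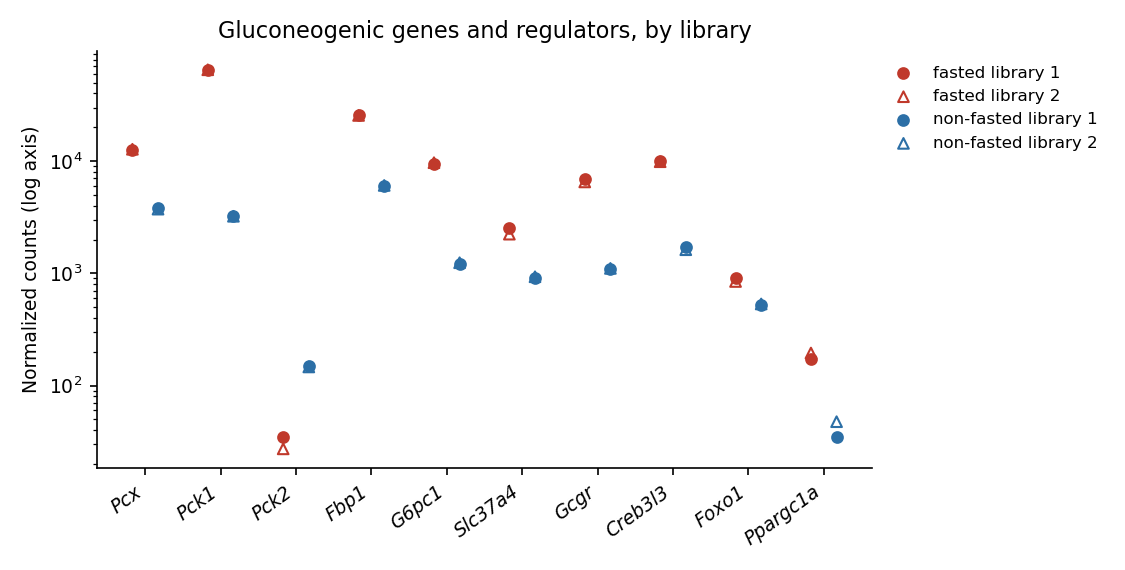
Normalized counts, on a log axis, of the 10 genes in each library (red, fasted; blue, non-fasted; circles, library 1; triangles, library 2). The red symbols lie above the blue ones for 9 genes and below them for Pck2. By median of ratios 37.2% of all genes tested were higher and 45.0% lower.

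Pcx encodes pyruvate carboxylase, the mitochondrial enzyme that turns pyruvate into oxaloacetate. It had 12643 and 12742 normalized counts in the fasted libraries, against 3847 and 3730 in non-fasted libraries. The groups did not overlap on this scale, and the log2 fold change was 1.77 (standard error 0.028, edgeR adjusted p = 3.9e-11). Per 10000 hepatocyte-marker counts Pcx stood at 38.0 and 38.2 in fasted and 40.0 and 39.0 in non-fasted libraries. The rise of Pcx was thus of the size of the hepatocyte markers' own, with 7 of the 14 markers rising less, and the edgeR test under hepatocyte-marker scaling left a log2 fold change of -0.00088 (standard error 0.024, edgeR adjusted p = 0.97).

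Pck1, the cytosolic phosphoenolpyruvate carboxykinase, is the classical fasting-induced enzyme of this pathway. Its normalized counts were 65170 and 65077 in fasted and 3251 and 3222 in non-fasted libraries. The log2 fold change of 4.36 (standard error 0.035, edgeR adjusted p = 5.6e-13) placed it above 99.9% of the genes tested. Against the hepatocyte markers it had 196 and 195 counts per 10000 in fasted and 33.8 and 33.7 in non-fasted libraries. The fitted log2 fold change under hepatocyte-marker scaling was 2.59 (standard error 0.021, edgeR adjusted p = 4.2e-20). All 14 hepatocyte markers rose by less than Pck1. With edgeR's own deviance the call was lost when non-fasted replicate 1 or 2 was left out (adjusted p = 1 for each, at log2 fold changes of 4.35 and 4.34). With the deviance computed exactly, a setting added once the data were known, it passed without either library (edgeR adjusted p = 2.19e-05 and 1.23e-06).

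Pck2 encodes the mitochondrial form of the same enzyme, and it moved the other way. Few reads came from it: fasted libraries held 18 and 14 raw counts, or 35.0 and 27.3 normalized counts, and non-fasted libraries 295 and 286, or 151 and 146 normalized. Every fasted value lay below every non-fasted one, and Pck2 fell by 2.23 on the log2 scale (standard error 0.19, edgeR adjusted p = 5.0e-06). Set against the hepatocyte markers it had 0.105 and 0.082 counts per 10000 in fasted and 1.57 and 1.53 in non-fasted libraries (log2 fold change -3.99, standard error 0.17). All 13 tested trophoblast markers and 7 of the 9 decidual markers were lower in fasted libraries as well, while 2 decidual markers were higher. The part of trophoblast and decidual RNA in the fall of Pck2 was not tested. The ratio of Pck1 to Pck2 counts, which no scaling can change, was 1863 and 2387 in the fasted libraries (95% counting intervals 1179 to 3144 and 1422 to 4366) and 21.6 and 22.0 in non-fasted libraries (19.2 to 24.3 and 19.5 to 24.9).

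Fbp1, the liver form of fructose-1,6-bisphosphatase, had 25646 and 25497 normalized counts in fasted and 6041 and 6065 in non-fasted libraries. It rose by 2.10 on the log2 scale (standard error 0.020, edgeR adjusted p = 2.0e-12), which was more than 11 of the 14 hepatocyte markers. Its counts per 10000 hepatocyte-marker counts were 77.1 and 76.4 in fasted and 62.8 and 63.3 in non-fasted libraries, a smaller difference that still separated the groups. Under hepatocyte-marker scaling the log2 fold change was 0.33 (standard error 0.023, edgeR adjusted p = 2.0e-09), within the markers' own range of -0.16 to 0.50.

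G6pc1 encodes the catalytic subunit of glucose-6-phosphatase, the last enzyme before glucose leaves the cell. Normalized counts were 9460 and 9670 in fasted libraries and 1210 and 1242 in non-fasted libraries. This was a log2 fold change of 2.99 (standard error 0.030, edgeR adjusted p = 2.8e-12), above that of all 14 hepatocyte markers. On the hepatocyte-marker scale G6pc1 had 28.5 and 29.0 counts per 10000 in fasted and 12.6 and 13.0 in non-fasted libraries. The ratio of these group means was 2.25. The fitted rise under hepatocyte-marker scaling was 2.33-fold (log2 fold change 1.22, standard error 0.032, edgeR adjusted p = 9.5e-15).

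Slc37a4, the carrier that brings glucose 6-phosphate into the endoplasmic reticulum for this reaction, did not keep pace with the catalytic subunit. It had 2536 and 2232 normalized counts in fasted and 914 and 931 in non-fasted libraries (log2 fold change 1.40, standard error 0.054, edgeR adjusted p = 1.6e-08). Among the enzymes and the carrier, its fasted libraries differed most from each other after those of Pck2. Per 10000 hepatocyte-marker counts it was lower in fasted libraries, at 7.63 and 6.69, against 9.51 and 9.72 in non-fasted libraries. The log2 fold change turned to -0.38 under that scaling (standard error 0.048, edgeR adjusted p = 2.5e-06). The ratio of G6pc1 to Slc37a4 counts was 3.73 and 4.33 in fasted and 1.324 and 1.334 in non-fasted libraries.

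**Figure D2:**
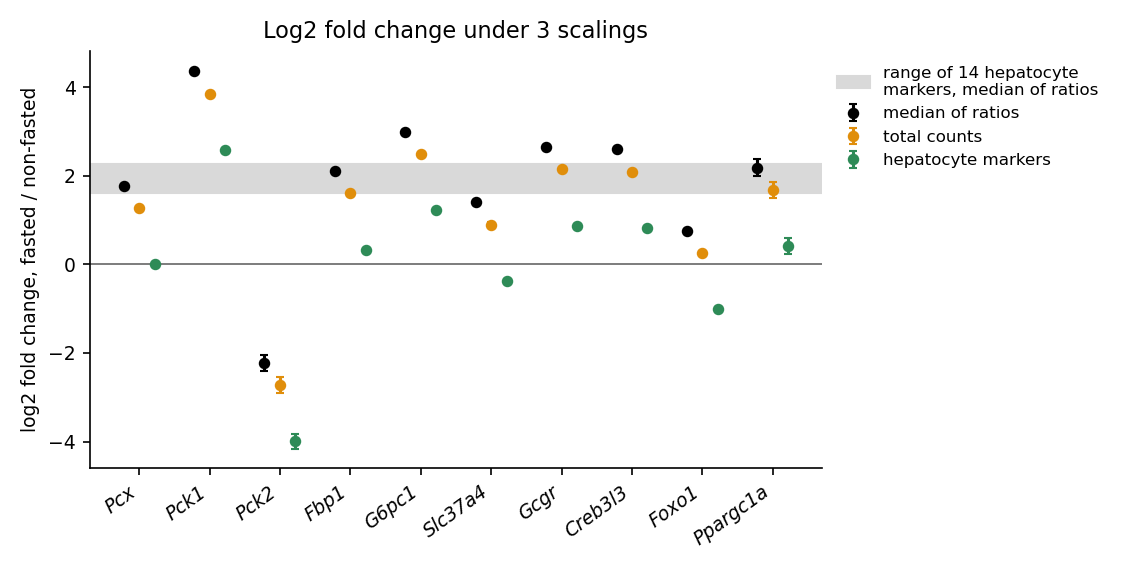
Fasted over non-fasted log2 fold change of the 10 genes after median-of-ratios, total-count and hepatocyte-marker scaling, with standard errors from edgeR (smaller than the symbol for most genes). The grey band is the range of the 14 hepatocyte markers after median of ratios, 1.61 to 2.27. Pck1, G6pc1, Gcgr and Creb3l3 lie above the band in black and above 0 in green, and Slc37a4 and Foxo1 change sign between black and green.

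Gcgr, the glucagon receptor, raises cyclic AMP in hepatocytes when glucagon binds. It had 6975 and 6519 normalized counts in fasted and 1088 and 1106 in non-fasted libraries, and its log2 fold change was 2.65 (standard error 0.038, edgeR adjusted p = 2.1e-11). Relative to 10000 hepatocyte-marker counts the values were 21.0 and 19.5 in fasted and 11.3 and 11.5 in non-fasted libraries, so that Gcgr was higher in both fasted libraries on this scale too (log2 fold change 0.88, standard error 0.038, edgeR adjusted p = 4.4e-12).

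Creb3l3 encodes CREBH, a membrane-bound transcription factor of the liver that is cleaved during fasting and acts on genes of lipid and glucose metabolism. Its normalized counts, 9995 and 9867 in fasted and 1716 and 1622 in non-fasted libraries, gave a log2 fold change of 2.60 (standard error 0.033, edgeR adjusted p = 1.2e-11). There were 30.1 and 29.6 counts per 10000 hepatocyte-marker counts in fasted and 17.9 and 16.9 in non-fasted libraries (log2 fold change 0.83, standard error 0.032, edgeR adjusted p = 1.4e-12). Gcgr and Creb3l3 both rose more than all 14 hepatocyte markers. They moved by nearly the same factor, with a ratio of Gcgr to Creb3l3 counts of 0.698 and 0.661 in fasted and 0.634 and 0.682 in non-fasted libraries, which overlapped.

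Foxo1 encodes the transcription factor that insulin inactivates, and its RNA showed the smallest rise of the 9 genes that were higher. The fasted libraries had 911 and 845 normalized counts and the non-fasted libraries 526 and 533 (log2 fold change 0.76, standard error 0.051, edgeR adjusted p = 8.9e-07). With total counts alone the log2 fold change was 0.25 (standard error 0.050, edgeR adjusted p = 0.0013). Against the hepatocyte markers the order turned, with 2.74 and 2.53 counts per 10000 in fasted and 5.47 and 5.57 in non-fasted libraries (log2 fold change -1.01, standard error 0.050, edgeR adjusted p = 2.4e-11). FOXO1 is also known as a transcription factor of decidual stromal cells. The 9 decidual markers summed to 14218 and 13820 counts in the fasted libraries, of which Igfbp4, also made by liver, took 13873 and 13499, and to 136872 and 138120 counts in non-fasted libraries. Their part in the Foxo1 values was not tested.

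Ppargc1a encodes PGC-1α, a coactivator that works with FOXO1 and HNF4α on the promoters of Pck1 and G6pc1. It was thinly covered, with 89 and 100 raw counts in fasted and 68 and 93 in non-fasted libraries, or 173 and 195 against 34.7 and 47.6 normalized counts. The groups did not overlap on the normalized scale, and the log2 fold change was 2.18 (standard error 0.18, edgeR adjusted p = 4.6e-06). Per 10000 hepatocyte-marker counts it had 0.520 and 0.584 in fasted and 0.361 and 0.497 in non-fasted libraries. Its test under hepatocyte-marker scaling passed by little (log2 fold change 0.41, standard error 0.18, edgeR adjusted p = 0.039). That log2 fold change lay within the markers' own range of -0.16 to 0.50. The ratio of Ppargc1a to Foxo1 counts was 0.190 and 0.230 in fasted libraries (95% counting intervals 0.1495 to 0.238 and 0.183 to 0.287). In non-fasted libraries it was 0.0660 and 0.0893 (0.0509 to 0.0844 and 0.0715 to 0.111).

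Ratios of genes within a library separated the groups without any scaling. Such ratios still carry the RNA of every tissue in a library, and the part of the trophoblast and decidual RNA in them was not tested. For the enzymes of the pathway, the Pck1 to Pcx ratio was 5.15 and 5.11 in fasted and 0.845 and 0.864 in non-fasted libraries, and the Pck1 to G6pc1 ratio was 6.89 and 6.73 in fasted and 2.69 and 2.59 in non-fasted libraries. Pck1 counts exceeded Pcx counts in fasted libraries and fell short of them in non-fasted libraries. By contrast the Fbp1 to Pcx ratio differed little, at 2.03 and 2.00 in fasted and 1.57 and 1.63 in non-fasted libraries. Pck1 and Fbp1 can also be set against the glycolytic enzyme of the opposite step. Pck1 stood at 33.4 and 32.6 times the counts of Pklr, the liver pyruvate kinase, in fasted and at 2.19 and 2.08 times in non-fasted libraries. For Fbp1 over Pfkl, the liver phosphofructokinase, the ratio was 30.9 and 31.2 in fasted and 4.76 and 5.23 in non-fasted libraries. The Gcgr to Insr ratio, glucagon receptor over insulin receptor, was 1.49 and 1.48 in fasted and 0.563 and 0.593 in non-fasted libraries.

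**Figure D3:**
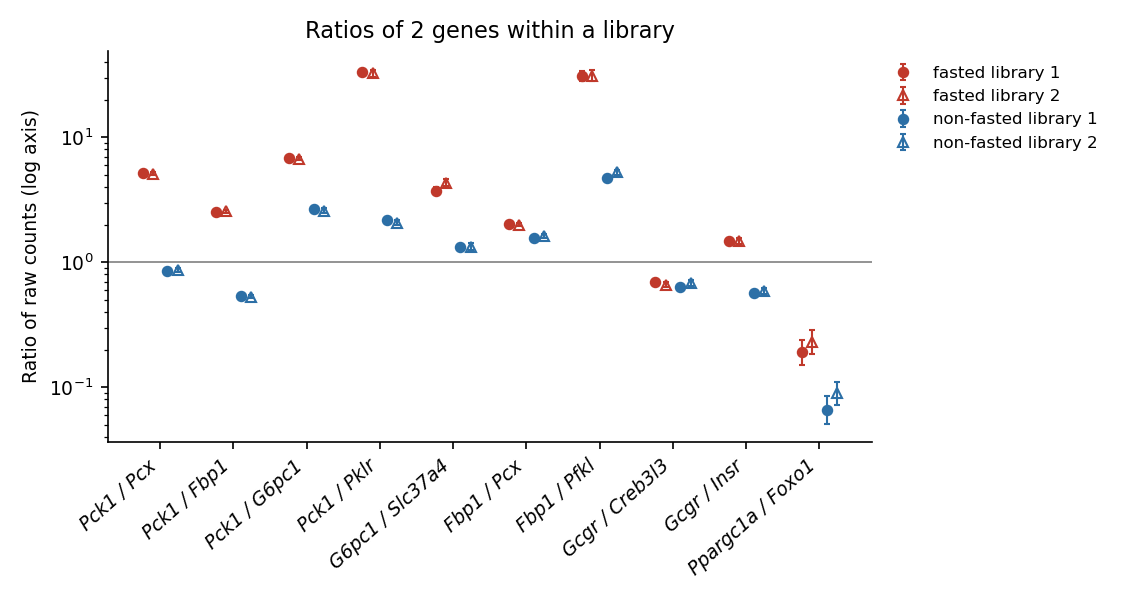
Ratio of the raw counts of 2 genes in each library, on a log axis (red, fasted; blue, non-fasted; bars, 95% counting intervals). Red lies above blue for every ratio shown apart from Gcgr over Creb3l3, where the values of the groups overlap between 0.661 and 0.682.

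Levels of different genes were compared as CPM, the share of a library's counts in parts per 1000000, divided by the kilobases of annotated exon. In fasted libraries Pck1 was highest at 931 and 928, followed by Fbp1 at 659 and 654, Creb3l3 at 166 and 163, G6pc1 at 149 and 152, Gcgr at 135 and 126, Pcx at 113 and 114 and Slc37a4 at 36.5 and 32.1. In non-fasted libraries Fbp1 came first at 216 and 217, Pck1 second at 64.7 and 64.0, then Pcx at 48.0 and 46.5, Creb3l3 at 39.6 and 37.4, Gcgr at 29.4 and 29.9, G6pc1 at 26.6 and 27.2 and Slc37a4 at 18.3 and 18.7. None of these neighbours in either order overlapped between the 2 libraries of a group. Foxo1 was far lower in both groups, at 4.0 and 3.70 in fasted and 3.21 and 3.25 in non-fasted libraries. Pck2 and Ppargc1a closed both orders, with Ppargc1a above Pck2 in fasted libraries (1.02 and 1.14, against 0.287 and 0.224) and below it in non-fasted libraries (0.285 and 0.389, against 1.73 and 1.67). Exon lengths came from an earlier annotation and are the union over transcripts, so these levels are approximate.

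The promoters of Pck1, G6pc1 and Pck2 are shown because the first pair rose most among the enzymes and Pck2 fell. Each run is the 200 bases before the start of the RefSeq gene, 5′ to 3′ on the gene's strand, from the RefSeq table of build GRCm38.p6, and all 10 genes had an entry there. Capitals mark the letters of a motif.
Pck1 (chr2:173152873-173153072, plus strand): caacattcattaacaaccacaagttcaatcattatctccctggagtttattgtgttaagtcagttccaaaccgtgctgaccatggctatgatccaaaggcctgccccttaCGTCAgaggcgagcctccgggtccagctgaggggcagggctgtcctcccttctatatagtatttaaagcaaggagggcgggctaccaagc
G6pc1 (chr11:101367516-101367715, plus strand): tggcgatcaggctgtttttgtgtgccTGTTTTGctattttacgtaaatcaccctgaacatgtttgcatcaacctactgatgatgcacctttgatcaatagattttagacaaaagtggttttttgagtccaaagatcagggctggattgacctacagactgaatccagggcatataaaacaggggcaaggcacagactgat
Pck2 (chr14:55540066-55540265, plus strand): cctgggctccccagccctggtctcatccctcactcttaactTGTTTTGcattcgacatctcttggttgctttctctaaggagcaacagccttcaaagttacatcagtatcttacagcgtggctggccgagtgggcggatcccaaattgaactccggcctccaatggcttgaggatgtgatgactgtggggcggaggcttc
The capitals in Pck1 are the reverse complement of TGACG, the short core of the site that CREB binds in genes answering to cyclic AMP, and the match begins 90 bases before the start. In G6pc1 and Pck2 the capitals are the reverse complement of CAAAACA, the core of the insulin response sequence, beginning 174 and 159 bases before the start. Within 250 bases before a start, on either strand, TGACG was found in 5 of the 14 promoters of the 10 genes (1 each of Pck1, Ppargc1a and Creb3l3 and 2 of Slc37a4) and in 17.8% of 32851 promoters, and CAAAACA in 3 of the 14 (G6pc1, Pck2 and 1 of Creb3l3) and in 5.56%. Slc37a4 has 3 entries there, of which the 2 with TGACG overlap and share a match, and Creb3l3 and Pcx have 2 each. The full CREB site TGACGTCA, which contains TGACG, was found in 0 of the 14 and in 1.55% of all promoters, the FOXO motif GTAAACA in 0 and in 3.17%, and the HNF4 motif CAAAGTCC in 0 and in 1.2%. The insulin response letters stood before G6pc1 and Creb3l3, which rose, and before Pck2, which fell, and these matches describe the sequence only.

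Of the close relatives of the 10 genes, none that was tested rose by median of ratios. Of 18 paralogs 14 were tested, and by median of ratios 0 were higher, 10 were lower and 4 did not pass edgeR's test, where 37.2% of all genes tested were higher and 45.0% lower, and their median log2 fold change was -1.15 against -0.13 over all genes tested. Under hepatocyte-marker scaling all 14 were lower, as were 90.2% of all genes. G6pc3, the widely expressed glucose-6-phosphatase, had 4.51 ± 0.0032 CPM in fasted and 17.9 ± 0.66 CPM in non-fasted libraries (SD, n = 2 libraries each). It fell by 1.49 on the log2 scale. G6pc1 had 79.8 and 81.4 times its counts in fasted libraries, against 3.67 and 3.57 times in non-fasted libraries. Among the FOXO factors Foxo3 and Foxo4 fell by 0.48 and 4.62 on the log2 scale. Foxo4 had 39.2 ± 1.5 CPM in fasted and 1363 ± 1.7 CPM in non-fasted libraries. The CREB3 relatives Creb3, Creb3l1 and Creb3l2 fell by 0.98, 6.69 and 3.38, whereas Creb3l4 did not pass the test at 0.33. Of the transporters related to Slc37a4, Slc37a1 fell by 2.38, and Slc37a2 and Slc37a3 did not pass at -0.30 and 0.03. The coactivator Ppargc1b did not pass at 0.29 and Pprc1 fell by 0.59. Of the receptors related to Gcgr, Glp2r fell by 1.31 and Gipr had no count in the fasted libraries. Fbp2, G6pc2, Foxo6 and Glp1r had too few counts to be tested. The falls went the same way as the 13 tested trophoblast markers and 7 of the 9 decidual markers. The part of trophoblast and decidual RNA in these falls was not tested.

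As a list, the enzymes that gluconeogenesis shares with glycolysis rose little. The 10 genes listed include Mdh1 and Mdh2, which are not glycolytic enzymes. By median of ratios 6 of the 10 were higher, 1 was lower and 3 did not pass edgeR's test, with a median log2 fold change of 0.22. On that scale 37.2% of all genes tested were higher and 45.0% lower. After hepatocyte-marker scaling 1 was higher and 9 were lower, where 90.2% of all genes tested were lower. The 1 gene that fell by median of ratios was Aldoa, the aldolase of muscle, at -1.40. The malate dehydrogenases Mdh1 and Mdh2, which interconvert oxaloacetate and malate, rose by 1.38 and 0.68 but turned to -0.39 and -1.09 after hepatocyte-marker scaling. Of 13 genes for the opposing glycolytic steps, 7 were higher and 6 lower, with a median of 0.15, and by hepatocyte markers 1 was higher and 11 were lower, again near that background. Hk2, Pfkp, Hk1 and Pkm, forms of hexokinase, phosphofructokinase and pyruvate kinase used outside hepatocytes, fell by 7.73, 5.65, 5.14 and 4.91 on the log2 scale. The part of trophoblast and decidual RNA in their falls was not tested.

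Most genes that bring substrates to the pathway rose after median-of-ratios scaling. Of 27, 24 were higher and 2 lower in edgeR's test, against 37.2% and 45.0% of all genes tested. Their median log2 fold change was 1.54. Hepatocyte-marker scaling left 7 higher and 19 lower, around a median of -0.23, where 4.62% of all genes were higher and 90.2% lower. The largest rises were those of glycerol kinase Gk (2.58), the cytosolic glycerol-3-phosphate dehydrogenase Gpd1 (2.48) and the glycerol channel Aqp9 (2.32), which kept 0.81, 0.71 and 0.55 after hepatocyte-marker scaling. The mitochondrial glycerol-3-phosphate dehydrogenase Gpd2, named after its values were seen, rose by 0.83 and turned to -0.94 after hepatocyte-marker scaling. Gk had 171 ± 1.5 CPM in fasted and 40.7 ± 0.96 CPM in non-fasted libraries (SD, n = 2 libraries each). The 2 that fell were Ldhb, a lactate dehydrogenase subunit, at -3.28 and Pdk4, a kinase that restrains pyruvate dehydrogenase, at -0.82.

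Regulators outside the 10 genes were divided. Over all genes tested, 37.2% were higher and 45.0% lower by median of ratios, and 4.62% and 90.2% by hepatocyte markers. A list of transcription factors and coactivators of gluconeogenic genes also held Txnip, which is neither. Of its 24 tested genes, 18 were higher and 5 lower by median of ratios (median log2 fold change 1.17). By hepatocyte markers 6 were higher and 15 lower (median -0.60). Foxa1 and Foxa2, pioneer factors of liver enhancers, Ppara, the fatty acid receptor of the fasting response, and Onecut1 rose by 2.99, 2.80, 2.87 and 2.34, and stayed higher by hepatocyte markers at 1.22, 1.03, 1.09 and 0.56. The 5 that fell were Cebpb, Txnip, Nr4a2, Nr4a1 and Stat3, at -2.32, -2.04, -1.35, -0.87 and -0.27. Of 24 genes of glucagon and cyclic AMP signalling, 13 were higher and 7 lower (median 0.40), and by hepatocyte markers 1, the phosphodiesterase Pde3b at 0.10, was higher and 23 were lower, against 90.2% of all genes lower. Sik1, a kinase that restrains the CREB coactivators and is itself induced by cyclic AMP, fell by 2.44, while Adcy6, an adenylyl cyclase, and Crem, a cyclic AMP-responsive transcription factor, rose by 1.54 and 1.33 but turned to -0.23 and -0.44 by hepatocyte markers. Of 16 genes of insulin and FOXO signalling, 7 were higher and 6 lower (median -0.03), and under hepatocyte-marker scaling 0 were higher and 14 lower, no more than the 90.2% lower among all genes. Irs1 and Igfbp1, a known target of FOXO1, rose by 1.83 and 1.72 and did not pass under hepatocyte-marker scaling (0.06 and -0.05), and Sgk1 and Akt1 fell by 2.86 and 1.74.

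Genes described as targets of CREBH rose together with Creb3l3. All 8 were higher by median of ratios, with log2 fold changes of 1.76 to 5.14 around a median of 2.53. Under hepatocyte-marker scaling 7 stayed higher, with a median of 0.75, the exception being Apoa4 at -0.0075. Of all genes tested, 37.2% were higher and 45.0% lower by median of ratios, and 4.62% and 90.2% by hepatocyte markers. Apoa5, an activator of triglyceride clearance, rose by 2.98, Hamp, the iron hormone hepcidin, by 2.58, Bdh1, an enzyme of ketone bodies, by 2.47 and Apoc2 by 2.05. Apoa5 had 1724.5 ± 13 CPM in fasted and 310 ± 5.6 CPM in non-fasted libraries (SD, n = 2 libraries each). Of 15 genes of glycogen and glucose 6-phosphate, 10 were higher and 4 lower (median 0.73), with Gys2, the liver glycogen synthase, at 2.17 and Ppp1r3c, a glycogen-targeting phosphatase subunit, at 1.79. The 4 that fell were Ppp1r3g, Pgm2, Gyg and Ppp1r3b, at -3.81, -3.52, -2.77 and -0.15. By hepatocyte markers Gys2 alone was higher (0.40), 13 were lower, where 90.2% of all genes were lower, and Ppp1r3c did not pass at 0.016.

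**Figure D4:**
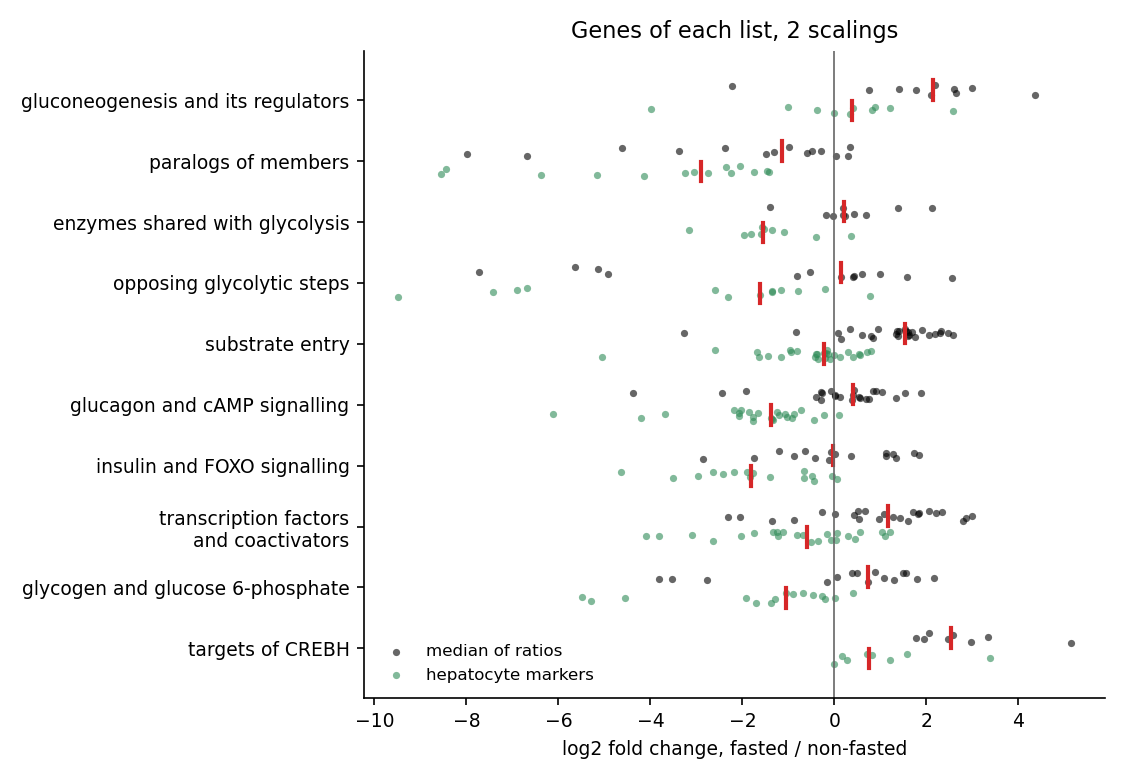
Fasted over non-fasted log2 fold change of every tested gene in 10 lists after median of ratios (black) and after hepatocyte-marker scaling (green), with the median of each list in red. The 10 gluconeogenic genes and the CREBH targets have medians above 0 on both scales, at 2.14 and 0.37 and at 2.53 and 0.75, whereas the other medians lie below 0 in green.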

How the data were processed

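The authors deposited raw counts per gene for each library, by Entrez identifier, with no normalization. The submitters' notes name Trimmomatic, STAR, featureCounts, FastQC, MultiQC and DESeq2 1.32.0 and the build GRCm39, while for strand and multi-mapped reads the settings were not given in the sources used here. Names came from RefSeq GRCm38.p6 (25275 of 27179 identifiers), so coordinates are given only for promoters, in that build, and exon lengths from the basic set of GENCODE vM21.

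After filterByExpr and median-of-ratios scaling, counts were tested in edgeR 4.0.16 (quasi-likelihood, two-sided, Benjamini-Hochberg over all 15470 genes at 0.05) in R 4.3.3. Each standard error is the absolute log2 fold change over the square root of F. The printed normalized counts use size factors over all genes, and their log2 fold changes are 0.026 lower than the fitted ones. Hepatocyte-marker scaling used the median ratio of the 14 markers. Ratios within a library carry exact Clopper-Pearson intervals at 95%, for counting error only, and were not tested. The test was also run on simulated counts in which both groups shared the same mean profile apart from known changes. That setting holds no difference in tissue content, so it cannot show how the scaling behaves here.

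The members and lists were chosen with earlier results of these data known. Named genes are all 10 genes, their paralogs, and in each other list up to 4 genes past the threshold with the largest change among those at 10 CPM or more in 1 group, with those that went against most of their list where these were 5 or fewer. Some genes that this rule names are not reported here. Libraries of a group differed slightly beyond counting error (squared deviation per gene 1.11 in fasted and 1.13 in non-fasted, where 1 is counting error alone), at a common coefficient of variation of 0.0099. The alternatives were other scalings, filters, tools, dispersions and a minimum fold, a replicate block, thinning and leaving out each library. DESeq2 1.42.0 and limma 3.58.1 were used for alternatives, and figures were drawn with matplotlib 3.10.9.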

Additional observations from a re-analysis of the deposited data

How the results depend on the processing

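Depth limits Pck2 and Ppargc1a most, with 14 to 295 and 68 to 100 counts per library. The direction of Pck1, G6pc1, Gcgr, Creb3l3, Fbp1, Ppargc1a and Pck2 was the same under every alternative that tested them. Hepatocyte-marker scaling turned the log2 fold changes of Slc37a4 (-0.38), Pcx (-0.00088), Foxo1 (-1.01), Slc37a3 (-1.74), Ppargc1b (-1.47), Creb3l4 (-1.42), Mdh1 (-0.39), Mdh2 (-1.09), Adcy6 (-0.23), Crem (-0.44) and Igfbp1 (-0.048). Total counts turned those of Slc37a3 (-0.47), Ppargc1b (-0.21) and Creb3l4 (-0.17). Of these, Ppargc1b and Creb3l4 did not pass by median of ratios or by total counts. The number of the 10 genes that were lower changed from 1 to 3 with hepatocyte-marker scaling, and to 0 with a filter of 10 CPM in 2 libraries, which removed Pck2 and Ppargc1a. Over all genes, those higher numbered 3550 with total counts, 715 with hepatocyte-marker scaling, 3714 and 1648 when the coefficient of variation was set to 0.2 and 0.4, and 2273 with a minimum fold of 2, against 5756. Those lower numbered 13949 with hepatocyte-marker scaling, 4419 with the filter of 10 CPM, 3691 with a coefficient of variation of 0.4 and 3990 with a minimum fold of 2, against 6965. The cause was not tested except where fewer genes were tested. Slc37a4 and Foxo1 no longer passed with a coefficient of variation of 0.4 (edgeR adjusted p = 0.051 and 0.35), nor did Foxo1 with a minimum fold of 2 (1). Pck1 did not pass with that minimum either (0.52), although its log2 fold change stayed at 4.36 and G6pc1 at 2.99 passed. That fit used edgeR's own deviance, as did the fits in which Pck1 was lost without a non-fasted library. Leaving out 1 library gave 8 to 9 of the 10 genes higher and 1 lower, and 5192 to 5311 genes higher and 6066 to 6288 lower over all. With the deviance also computed exactly, a setting added once the data were known, 9 were higher and 1 lower without any of the 4 libraries. Same-numbered libraries did not deviate together (correlation -0.0030), and a replicate block gave 9 of the 10 genes higher and 1 lower, and 5743 and 6929 genes over all.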
